A study of Mus musculus with 12 samples.

Results

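The genes described here are the cathepsins, the main proteases of the lysosome, and the proton pump that makes the lysosome acid. They were chosen by symbol alone, as the genes whose symbol starts with Cts and a further letter, or with Atp6v or Atp6ap. This took 38 of the 18050 genes in the table, of which 14 were cathepsins and 24 were named for the pump. Of the pump symbols, 12 name the V1 sector, 9 the V0 sector and 3 accessory proteins. Atp6v1fnb, counted here with the V1 symbols, is by name a neighbour of a subunit gene and not a subunit. Tcirg1 encodes an isoform of the V0 a subunit but carries another symbol, so it is given only as a comparator.

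The samples were left ventricles of wild-type mice, collected 7 days after a sham operation or after MI, read here as myocardial infarction. There were 6 libraries in each group, and the submitters' processing notes divide them into replicates 1 and 2 and replicates 3 to 6. Strain, sex and age are not in the labels. The labels do not tie libraries to separate animals, so the p-values below describe how far these libraries vary, and that variation could be technical.

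Cathepsins are made as inactive precursors and mature in the lysosome. Most are cysteine proteases (B, C, F, H, K, L, O, S, W and Z), while D and E are aspartic proteases and A and G are serine proteases. The pump, or V-ATPase, splits ATP in its cytosolic V1 sector and moves protons through its membrane-bound V0 sector, and the acid it makes is what most cathepsins need to work. In the injured heart both are best known from macrophages, which digest dead muscle and remodel the matrix, but heart muscle cells and fibroblasts carry lysosomes too.

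Expected counts per library summed to between 9090662 and 18602226 over the genes listed for all 12 libraries. Within a group, replicates 3 to 6 differed much less from each other than replicates 1 and 2 did, with a biological coefficient of variation (the spread between libraries beyond counting noise) of 0.0292 in sham and 0.0208 in MI against 0.11 and 0.19. A gene is therefore said to have risen or fallen only where 2 tests passed an adjusted p of 0.05 in the same direction. The first used all 12 libraries with the set as a covariate, and the second summed replicates 3 to 6 and counted them once per group. Within a single set the words rest on that set's own test. Log2 fold changes are MI over sham from the 12-library test unless a set is named, and levels are TMM-scaled CPM. The tissue markers moved with the groups in both sets. The summed level of 9 cardiomyocyte markers went from between 72650 and 90090 CPM in sham to between 6302 and 26870 CPM in MI, and 8 of the 9 fell. Summed macrophage markers, 12 genes of which 11 rose, went from 753 to 798 CPM in sham 1 and 2 to 4358 CPM in MI 1 and 6454 CPM in MI 2, and from between 1281 and 1330 CPM to between 3849 and 3990 CPM in replicates 3 to 6. Their most abundant members were Lyz2, lysozyme, and C1qa, a complement subunit. Of all 13592 genes tested 28.1% rose and 29.8% fell, the shares to set these marker counts against. In bulk RNA a change in the number of cells of a type cannot be told apart from a change in RNA per cell. MI libraries 3 to 6 stand apart in a further way. Lung epithelium markers, 9 genes in the table, summed to between 190.8 and 194 CPM there against at most 28.25 CPM in every other library, led by the surfactant gene Sftpc at between 112.7 and 116.1 CPM. Hbb-bs, a haemoglobin chain, was at most 2.79 CPM in those 4 libraries and at least 401.5 CPM in the other 8. For the called genes of the set the change is therefore also given in each set, and the values of replicates 1 and 2 are those without these libraries. The related gene lists are given over 12 libraries only.

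Most cathepsins rose after MI. Of 13 that could be tested, 10 rose, led by Ctss, Ctsk, Ctsw and Ctsz, and only Ctsf fell, while Ctsd and Ctse were not called. For comparison 28.1% of all 13592 genes tested rose and 29.8% fell. With scaling by library size alone 11 rose and 0 fell. Their median log2 change was 1.605, against 0.015 over all genes tested. By class, 9 of 10 cysteine cathepsins rose, as did Ctsa, the only serine member tested. Neither aspartic cathepsin was called. Together the cathepsins took between 0.246% and 0.363% of all counts in the sham libraries and between 0.871% and 1.56% in the MI libraries, so the groups did not overlap.

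**Figure D1:**
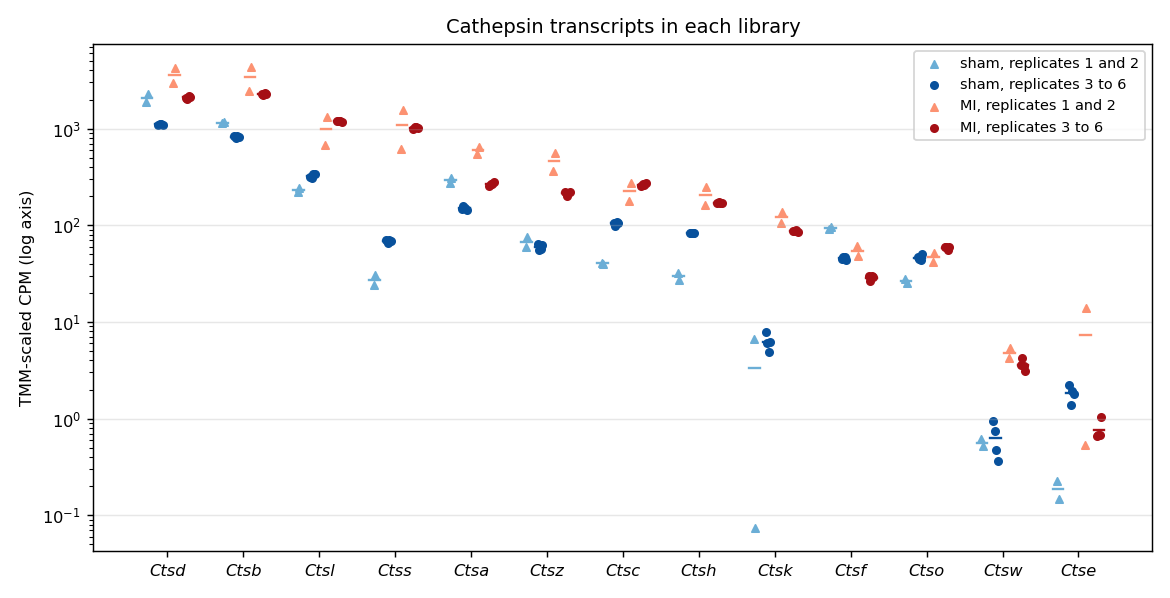
TMM-scaled CPM (log axis) of the 13 tested cathepsins, ordered by mean level; each point is a library, short lines are set means, triangles are replicates 1 and 2 and circles replicates 3 to 6. Ctss and Ctsk stand far higher in all 6 MI libraries, Ctsf is lower within each set, and Ctse is highest in MI 2 at 13.98 CPM.

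Ctss encodes cathepsin S, an elastin-cutting protease that also trims the invariant chain for antigen presentation, and it showed the largest called fold change among cathepsins. Its level was 24.05 and 30.3 CPM in sham 1 and 2 and between 66.1 and 70.4 CPM in sham 3 to 6. After MI it was 610.6 CPM in MI 1, 1573 CPM in MI 2 and between 994.8 and 1043 CPM in MI 3 to 6. Every MI library lay above every sham library, and MI 1 and MI 2 were the lowest and the highest of the MI group. Its log2 fold change came to 4.35 (SE 0.304, adjusted p = 9.6e-08), and to 4.83 with replicates 3 to 6 counted once (adjusted p = 0.00168). It was 5.31 in replicates 1 and 2 and 3.93 in replicates 3 to 6. Over the 12 libraries the exact two-sided permutation test gave p = 0.002165, the smallest value that 6 against 6 allows. That test takes replicates 3 to 6 singly and ignores the set. Any gene without overlap reaches this value, and of all genes tested 21.4% had every MI library above every sham library and 21.3% below. In share of all cathepsin transcripts per length (TPM), Ctss went from between 0.942% and 3.79% in sham to between 11.1% and 18.6% in MI.

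Ctsk, cathepsin K, the collagen-degrading protease of osteoclasts, changed nearly as much from a lower level. The sham libraries held 0.0741 CPM at the lowest, 6.18 CPM at the median and 7.83 CPM at the highest, and the MI libraries 86.1, 88.2 and 138.5 CPM. The lowest value was sham 2, with 1 count against 87 in sham 1. The groups did not overlap. For Ctsk the log2 fold change came to 4.25 (SE 0.448, adjusted p = 3.21e-06), to 5.17 in the first set and to 3.84 in the second. Leaving out single libraries moved it between 3.90 and 4.39. Ctsk and Ctss are neighbours on the plus strand of chromosome 3 of GRCm38, at 95499210 to 95509387 and 95526786 to 95556405, and no exon of another annotated gene overlaps either. Of 9 osteoclast markers 6 were tested, of which 5 rose, beside 28.1% of all genes tested, and Mmp9 was not called. Among the 5 was Dcstamp, at most 0.222 CPM in sham and between 1.03 and 4.77 CPM in MI. Ocstamp, Oscar and Calcr had too few counts to test. Ocstamp was at 0 in sham and between 0.121 and 0.926 CPM in MI, and Oscar was at most 0.603 CPM in sham and 0.324 CPM in MI. Calcr, the calcitonin receptor, was at or near 0 in all libraries (at most 0.0926 CPM). The summed level of those 9 went from between 31.9 and 45.27 CPM in sham to between 89.8 and 243.1 CPM in MI. Their part in the change of Ctsk was not tested.

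Promoter windows were read because many of these genes are known from myeloid cells. The motif GAGGAAG, the core bound by PU.1, the myeloid transcription factor, was searched on both strands of windows from 250 bases before to 50 after each start (RefSeq, GRCm38.p6). The matches in the rising genes Ctss, Ctsk and Ctsc are shown in capitals, as CTTCCTC where the motif lies on the other strand. Ctsz, also a gene of myeloid cells that rose, has a window without a match, as have the rising genes Ctsa, Ctsl and Ctso. Each line of sequence is written along the gene's own strand.
Ctss, chr3:95526774-95526803, plus strand: atgaaagttcaCTTCCTCattgtggatgct
Ctsk, chr3:95498966-95498995, plus strand: tcagacattttGAGGAAGaatggagacaac
Ctsk, chr3:95499140-95499169, plus strand: aaatgtgtgtcCTTCCTCcctaacccctcc
Ctsc, chr7:88277877-88277906, plus strand: ccactttccttCTTCCTCctagtggtgcct
Ctsc, chr7:88277924-88277953, plus strand: tcactaactaaCTTCCTCaggccacctcgt
The match in Ctss begins 1 base before the annotated start, and those in Ctsk begin 233 and 59 bases before it. Of the 38 genes 27 had a window, some more than 1, and 5 of their 31 windows held the motif (16.1%). Among all 32851 windows 13.6% held it. The other genes with a match were Ctsg, which has too few counts to test, and Atp6v1d, which fell.

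Ctsb and Ctsl, both made in most cells, rose from high levels in sham. Ctsb, cathepsin B, an exo- and endopeptidase, was at 1138 and 1166 CPM in sham 1 and 2 and between 806 and 832.3 CPM in sham 3 to 6. In MI it reached 2424 CPM in MI 1, 4335 CPM in MI 2 and between 2246 and 2315 CPM in MI 3 to 6, with no overlap between groups. Its log2 fold change was close to equal in the sets, at 1.53 and 1.52, and 1.497 in all (SE 0.13, adjusted p = 6.05e-07). Without sham 1 or without sham 2 it was 1.48 and 1.49, but the test that counts replicates 3 to 6 once no longer passed. Ctsl, cathepsin L, which cleaves many lysosomal proteins and other cathepsins, rose from between 221.8 and 339 CPM to between 678.8 and 1308 CPM. The log2 fold change of Ctsl was 1.94 (SE 0.138, adjusted p = 1.12e-07), 2.07 in replicates 1 and 2 and 1.92 in replicates 3 to 6. Exons of other genes overlap 12.8% of the Ctsb exon bases on the opposite strand (Fdft1) and, for Ctsl, 26.8% on the opposite and 6.09% on the same strand. Since strandedness is not stated, reads there cannot be assigned with certainty.

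Ctsd, cathepsin D, the aspartic protease that starts the breakdown of many proteins, was the most abundant cathepsin in sham. It held 1874 CPM in sham 1, 2307 CPM in sham 2 and between 1090 and 1118 CPM in sham 3 to 6, against 2944 CPM in MI 1, 4235 CPM in MI 2 and between 2028 and 2185 CPM in MI 3 to 6. MI lay above sham within each set, but across sets sham 2 lay above all 4 libraries of MI 3 to 6. Ctsd changed by 0.88 (SE 0.112, adjusted p = 1.65e-05) in the 12-library test and by 0.81 with replicates 3 to 6 counted once, where it missed the threshold (adjusted p = 0.0643). With scaling by library size alone it passed both tests. Its share of cathepsin TPM went from between 37.7% and 54.0% to between 24.8% and 34.2%, while that of Ctsb was between 26.1% and 30.9% in sham and between 28.3% and 30.04% in MI. Ctsd shares 34.4% of its exon bases with a same-strand gene model, Gm49369, so its counts are uncertain by an unknown amount.

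The 250 bases before the Ctsd start are shown because Ctsd carries CACGTG, the E-box core of the element read by the lysosomal regulator TFEB, at 2 places (capitals). The stretch is chr7:142387828-142388077 on the minus strand (GRCm38.p6), written along the gene.
Ctsd: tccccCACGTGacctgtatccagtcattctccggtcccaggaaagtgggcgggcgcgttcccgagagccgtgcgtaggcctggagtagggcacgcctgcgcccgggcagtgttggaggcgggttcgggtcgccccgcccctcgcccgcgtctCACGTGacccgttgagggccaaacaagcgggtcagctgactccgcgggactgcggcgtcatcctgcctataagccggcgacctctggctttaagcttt
The palindrome TCACGTGA around the second match begins 99 bases before the start. Matches in other genes of the set, whichever way they moved, follow with the pump.

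Ctsz, Ctsc, Ctsh and Ctsw rose within both sets with no overlap between groups. Ctsz, cathepsin Z (also called X), a carboxypeptidase of myeloid cells, went from between 55.4 and 75.2 CPM to between 200.3 and 561.2 CPM (2.16, SE 0.171, adjusted p = 2.66e-07). The change of Ctsz was 2.76 in replicates 1 and 2 and 1.90 in replicates 3 to 6, a difference that passed over 12 libraries (adjusted p = 0.001489) but not with replicates 3 to 6 counted once (0.1884). Ctsc, dipeptidyl peptidase 1, which activates the serine proteases of leukocyte granules, went from between 39.9 and 107.4 CPM to between 177.3 and 276.9 CPM (1.71, SE 0.19, adjusted p = 5.13e-06). Within the sets Ctsc changed by 2.475 and 1.374, with sham at 40.6 and 39.9 CPM in replicates 1 and 2 and at least 99.2 CPM in replicates 3 to 6. The gene length implied by its counts and TPM was also unequal between the sets, at between 0.971 and 1.04 times the median gene in replicates 1 and 2 and between 2.18 and 2.29 times in replicates 3 to 6. Gene models that differed between the sets would change the counts as well, which was not tested, so for Ctsc only the values within a set can be compared. MI lay above sham within each set. The ranges of Ctsc over both sets and its lack of overlap over 12 libraries may set unlike counts together. Ctsw, a cathepsin of cytotoxic lymphocytes, was scarce. Its summed counts went from 15 to 204 in replicates 1 and 2 and from 21 to 237 in replicates 3 to 6, which after scaling is 8.54 times (exact 95% interval 5.06 to 15.6, counting error only) and 5.72 times (3.65 to 9.41) the sham level. T and NK cell markers, 11 genes, moved the same way, from at most 11.7 CPM summed in sham to between 26.3 and 35.2 CPM in MI. Of the 9 tested 6 rose, beside 28.1% of all genes tested. The part of these markers in the change of Ctsw was not tested.

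Ctsh was the only gene of the 38 whose change differed between the sets in both tests, where 10.5% of all genes tested did. Ctsh encodes cathepsin H, an aminopeptidase that also processes surfactant protein in the lung. It was at 32.2 and 27.3 CPM in sham 1 and 2 but between 82.6 and 83 CPM in sham 3 to 6. In MI it was 161.8 CPM in MI 1, 246.7 CPM in MI 2 and between 169.9 and 173.8 CPM in MI 3 to 6. The sham levels of the sets were thus far apart and the MI levels near each other. Ctsh changed by 2.76 in replicates 1 and 2 and by 1.10 in replicates 3 to 6, a difference of -1.73 (adjusted p = 2.28e-06 over 12 libraries and 0.0443 with replicates 3 to 6 counted once). This difference was not called with scaling by library size alone. Lung markers summed to at most 28.25 CPM in replicates 1 and 2 and to between 1.313 and 2.337 CPM in sham 3 to 6. In MI 3 to 6 they summed to at least 190.8 CPM, and their part in the change of Ctsh was not tested.

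**Figure D2:**
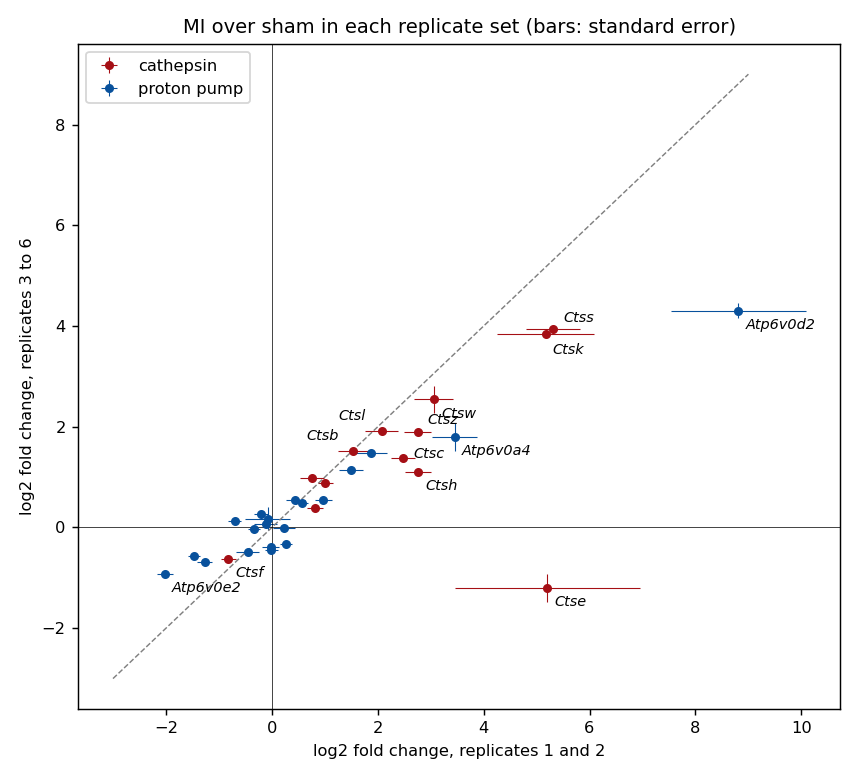
Log2 fold change (MI over sham) of the 33 tested genes in replicates 1 and 2 (horizontal axis) and replicates 3 to 6 (vertical axis), with standard errors; the dashed line marks equal change. Most rising cathepsins lie below the line, Ctsb and Ctsl lie close to it, and Ctse has opposite signs at 5.202 and -1.21.

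Within the sets alone, 12 cathepsins rose and 1 fell in replicates 1 and 2, where 34.1% of all genes tested rose and 32.9% fell. In replicates 3 to 6, 11 rose and 2 fell, against 42.2% and 39.5%. The median log2 fold change of the cathepsins was 2.475 in the first set and 1.374 in the second. For 11 of the 13 the value in replicates 3 to 6 was the lower one in the 12-library fit, but except for Ctsh these differences did not pass both tests. In replicates 1 and 2 the levels of Ctss, Ctsb and Ctsl were higher in MI 2 than in MI 1, as were the summed macrophage markers, whose part in this was not tested.

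Ctse, cathepsin E, an aspartic protease of immune and gastric cells, went in opposite directions in the sets. It had 3 and 2 counts in sham 1 and 2, 11 in MI 1 and 302 in MI 2. In replicates 3 to 6 it had between 11 and 19 counts in sham and between 11 and 17 in MI, from deeper MI libraries, so that its level fell from between 1.37 and 2.22 CPM to between 0.666 and 1.03 CPM. Changes on the log2 scale were 5.202 (adjusted p = 0.0394) and -1.21 (adjusted p = 2.675e-04), and the difference of -6.47 had an adjusted p of 0.00374 in the first form of the test and 0.1595 in the second. Over 12 libraries it was 0.67 (SE 1.10) and without MI 2 it was -0.78, so the sign rests on that library.

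Ctsa and Ctso rose by less than the genes above, and Ctsf fell. Ctsa, a carboxypeptidase that also stabilises other lysosomal enzymes, went from 276.6 and 305.2 to 540.2 and 649.3 CPM in replicates 1 and 2 and from between 142.4 and 159.6 to between 255.6 and 282.2 CPM in replicates 3 to 6. The sets did not share a level, so the groups overlap over 12 libraries although they do not within a set. The log2 fold change of Ctsa was 0.90 (SE 0.072, adjusted p = 3.11e-07), or 1.01 and 0.88 in the sets, with 17.4% of its exon bases under exons of other genes on the opposite strand. Ctso, a little-studied cysteine cathepsin, changed by 0.50 (SE 0.093, adjusted p = 3.417e-04), from 27.55 and 25.04 to 41.8 and 51.9 CPM and from between 43.6 and 50.3 to between 55.9 and 60.2 CPM. The sets gave 0.81 and 0.39, and without sham 1 or sham 2 it was 0.47 and 0.44 and no longer called. Ctsf, cathepsin F, went the other way, from 92.4 and 95.8 to 60.6 and 47.6 CPM and from between 43.3 and 47.2 to between 26.6 and 29.6 CPM, for a change of -0.71 (SE 0.065, adjusted p = 9.64e-07), with -0.82 and -0.62 in the sets. With scaling by library size alone, which moves the median of all genes up by 0.41, Ctsf was at -0.30 and was not called. Ctsg, the granule protease cathepsin G of neutrophils and mast cells, had 0 counts in all 6 sham libraries and 6, 3, 1, 1, 0 and 3 counts in MI 1 to 6. Taking 3 counts as the limit that 0 over the 2 sham libraries of replicates 1 and 2 allows, the scaled ratio of MI to sham was 1.89 there. This takes the 9 MI counts as exact, so it is not a lower bound. In replicates 3 to 6 no fold can be given. Neutrophil markers summed to at most 29.0 CPM in sham and between 34.2 and 74.6 CPM in MI. Of the 5 tested only Csf3r and Cxcr2 rose, beside 28.1% of all genes tested. Csf3r, the receptor of a neutrophil growth factor, made up 20.6 CPM of the sum in MI 1 and 47.2 CPM in MI 2. S100a8, S100a9 and Retnlg were not called, and S100a9 was at 1.83 CPM in MI 1 against at least 8.80 CPM in sham 3 to 6. Among the markers with too few counts to test, Mpo was at 0 in sham and between 0.243 and 2.51 CPM in MI. Prtn3 was at most 0.234 CPM in sham and between 0.425 and 2.36 CPM in MI. Camp was at 0 in sham and between 0.185 and 0.861 CPM in MI. Ngp was at most 0.2283 CPM in sham and between 0.2315 and 1.817 CPM in MI. Elane, Ltf and Ly6g, also untested, overlapped between the groups. The part of neutrophils in the counts of Ctsg was not tested.

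The pump did not follow the cathepsins as a whole. Of 20 pump genes tested, 6 rose (Atp6v0d2, Atp6v0a4, Atp6v1a, Atp6ap2, Atp6v0e and Atp6v0d1), 3 fell (Atp6v0e2, Atp6v1d and Atp6v1e1) and 11 were not called, beside the 28.1% and 29.8% of all genes. Their median log2 fold change was 0.016, against 0.015 over all genes. By sector, 4 of 9 V0 genes rose and 1 fell, 1 of 9 V1 genes rose and 2 fell, and 1 of 2 accessory genes rose. The summed pump level was between 1738 and 1911 CPM in sham and between 1624 and 2149 CPM in MI, so the groups overlapped. As a share of all counts, with no TMM scaling, it was between 0.153% and 0.161% in sham and between 0.182% and 0.250% in MI, with no overlap. With scaling by library size alone 7 rose and 3 fell, and 6 genes that were not called changed sign, while all genes shifted from 3823 rises and 4055 falls to 6264 and 2477.

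**Figure D3:**
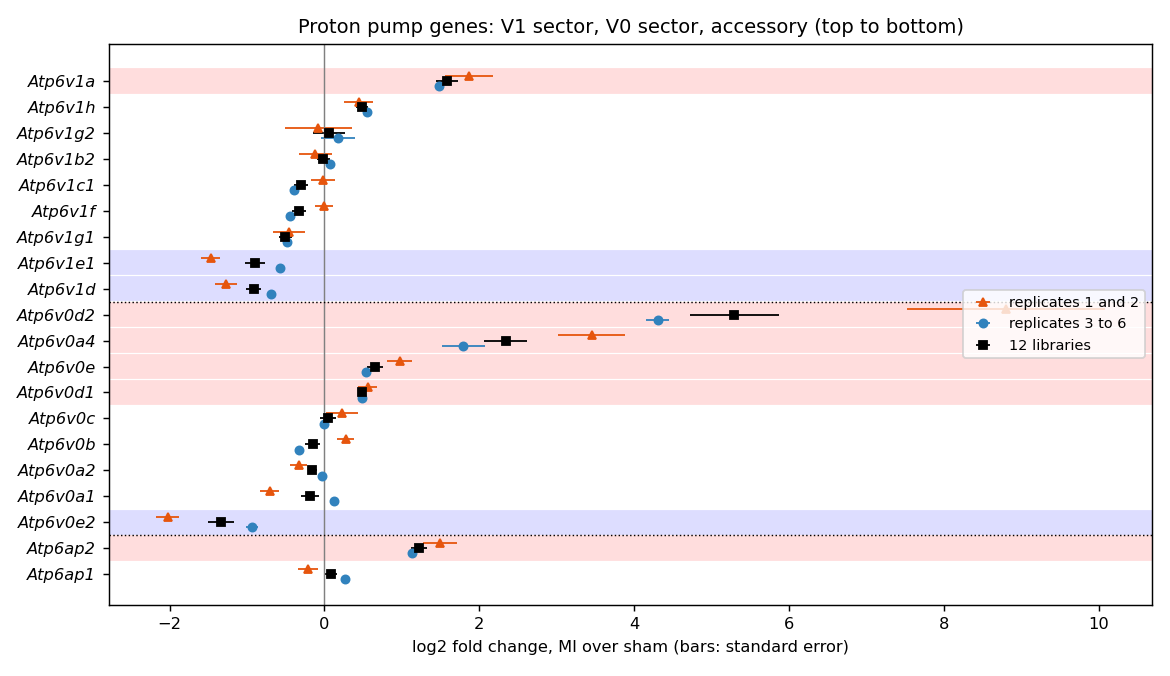
Log2 fold change (MI over sham) of the 20 tested pump genes with standard errors, in replicates 1 and 2 (triangles), replicates 3 to 6 (circles) and all 12 libraries (squares), grouped by sector. Red bands mark genes that rose in both tests and blue bands those that fell; Atp6v0d2 lies farthest out at 5.29, and 6 of the unbanded genes change sign when scaled by library size alone.

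Within the V1 sector the subunits moved unequally, although each working pump holds all of them. Atp6v1a, the catalytic A subunit that binds ATP, rose from 35.2 and 31.6 CPM in sham 1 and 2 to 84.4 CPM in MI 1 and 162.4 CPM in MI 2, and from between 41.6 and 47.8 to between 115 and 123 CPM in replicates 3 to 6. No MI library overlapped a sham library, and the rise was 1.58 on the log2 scale (SE 0.142, adjusted p = 7.73e-07), with 1.86 and 1.48 in the sets. Its partner in the catalytic ring, the B subunit gene Atp6v1b2, was at 110.4, 117.7 and 140.3 CPM in sham (lowest, median and highest) and 100.4, 118.3 and 153.7 CPM in MI, which is -0.014 on the log2 scale (SE 0.087). The stalk subunits D and E fell. Atp6v1d, the central shaft, went from between 84.8 and 148.9 CPM to between 33.4 and 83.4 CPM, with no overlap (-0.91, SE 0.097, adjusted p = 3.4e-06), and changed by -1.27 and -0.69 in the sets. Atp6v1e1, a peripheral stalk subunit, went from between 162.7 and 185.2 CPM to between 64.0 and 112.6 CPM, also with no overlap (-0.89, SE 0.125, adjusted p = 3.67e-05). The sets gave -1.47 and -0.57, values whose difference passed over 12 libraries (adjusted p = 5.48e-07) but not with replicates 3 to 6 counted once (0.05612). In TPM, which carries no TMM scaling, both stalk genes overlapped between the groups over 12 libraries. Atp6v1e1 averaged 181 TPM in sham 3 to 6 and 185 TPM in MI 3 to 6, and Atp6v1d 126.1 and 118.4 TPM. In replicates 1 and 2 both were lower in MI, at 219.6 and 127.3 TPM for Atp6v1e1 and 93.6 and 62.33 TPM for Atp6v1d.

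The other V1 subunits were not called. Atp6v1h, the regulatory H subunit, went from between 31.7 and 54.0 CPM to between 42.0 and 71.6 CPM, at 0.49 (SE 0.078) with an adjusted p of 1.095e-04 over 12 libraries and 0.0510 with replicates 3 to 6 counted once. Atp6v1g1, of the peripheral stalk, was at -0.50 (SE 0.088) with adjusted p of 2.326e-04 and 0.0725. Atp6v1c1 and Atp6v1f were at -0.30 and -0.33, and passed over 12 libraries and in replicates 3 to 6 but not in the second test. Both were near 0 in replicates 1 and 2, at -0.021 and -0.009. Atp6v1g2, the neuronal G isoform, held between 1.76 and 3.52 CPM in all libraries and showed 0.055 (SE 0.207). The second C isoform gene Atp6v1c2, known from kidney and lung, had 1 count over sham 3 to 6 and 17 over MI 3 to 6, a ratio of 8.61 (exact 95% interval 1.35 to 360, counting error only), and 0 counts in replicates 1 and 2. It thus appeared in the 4 MI libraries with lung markers, whose part in it was not tested. Atp6v1e2, the testis isoform, had 1 count over sham 3 to 6 and 6 over MI 3 to 6, and Atp6v1fnb rounded to 0 in every library.

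The V0 sector held the largest change among all 38 genes. Atp6v0d2 encodes the d isoform known from osteoclasts and macrophages. It had 2 and 0 counts in sham 1 and 2 and between 7 and 10.8 in sham 3 to 6. In MI it had 292.4 counts in MI 1, 1310 in MI 2 and between 327.9 and 389 in MI 3 to 6. The groups did not overlap, at between 14.1 and 60.7 CPM in MI against at most 1.31 CPM in sham. After scaling the ratio of summed counts was 503 in replicates 1 and 2 (exact 95% interval 139 to 4159, counting error only) and 19.4 in replicates 3 to 6 (13.9 to 27.8), and the fitted log2 fold change was 5.29 (SE 0.576, adjusted p = 4.18e-06). The difference between sets, -4.54, did not pass either test (adjusted p = 0.0534 and 0.2137). Atp6v0d1, the d isoform found in all cells, rose by much less, from between 61.7 and 69.0 CPM to between 81.6 and 106 CPM (0.48, SE 0.052, adjusted p = 3.75e-06). It was at 0.56 and 0.48 in the sets, and was no longer called without sham 1 or without sham 2, at 0.45 and 0.48. Per length, Atp6v0d2 made up at most 0.893% of d isoform TPM in sham and between 8.88% and 27.03% in MI, with MI 2 the highest.

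The makeup of the a subunits shifted as well. Per length Tcirg1, the isoform of osteoclast and macrophage pumps, made up between 7.34% and 24.4% of a isoform TPM in sham and between 50.6% and 64.7% in MI, with no overlap. Tcirg1 rose by 2.64 (SE 0.267, adjusted p = 2.22e-06), by 3.76 in replicates 1 and 2 and by 2.11 in replicates 3 to 6, and this difference passed both tests (adjusted p = 9e-07 and 0.0245). Atp6v0a1 and Atp6v0a2, the isoforms of most cells, were not called. Atp6v0a1 was at 177.5 and 184.2 CPM in sham 1 and 2 and 105.1 and 119.9 CPM in MI 1 and 2, but between 46.7 and 50.6 CPM in sham 3 to 6 and between 48.0 and 53.1 CPM in MI 3 to 6. Its log2 fold change was -0.18 (SE 0.119), with -0.71 and 0.13 in the sets, and it turned to 0.23 with library size alone. Atp6v0a2 was at -0.16 (SE 0.059), and at 0.25 with library size alone. Atp6v0a4, the kidney isoform, rose from at most 0.746 CPM to between 2.09 and 3.43 CPM, by 2.35 on the log2 scale (SE 0.278, adjusted p = 8.78e-06), but never passed 1.22% of a isoform TPM. The sets gave 3.45 and 1.80. It had 8 counts over sham and 144 over MI in replicates 1 and 2, and 21 and 141 in replicates 3 to 6.

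**Figure D4:**
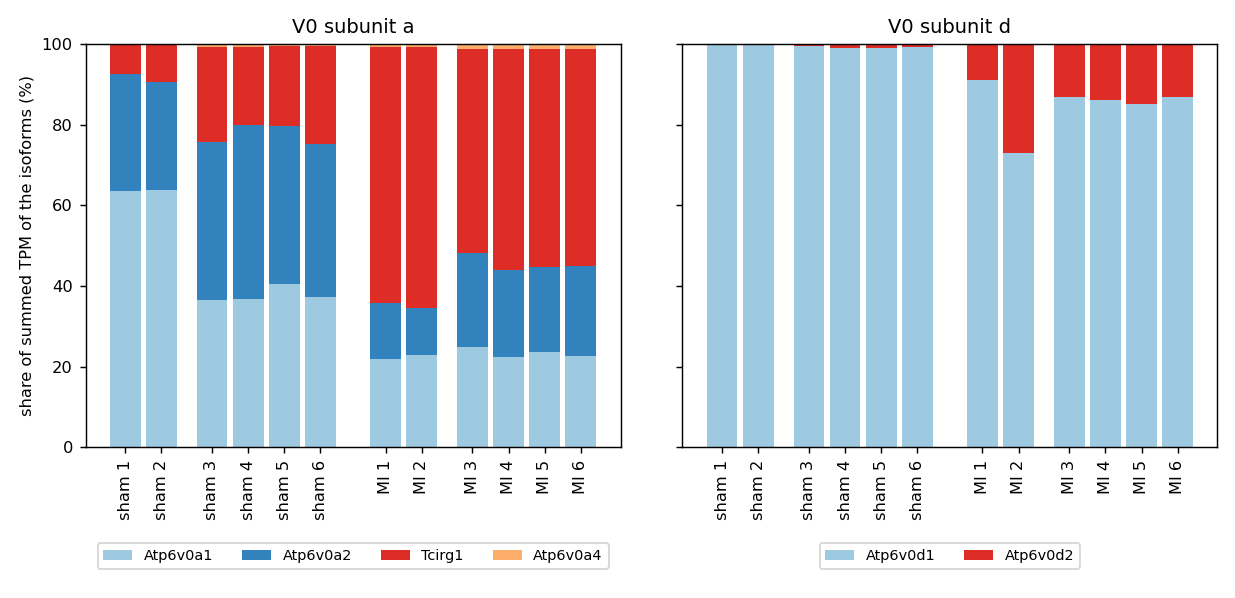
Share (%) of each isoform in the summed TPM of the V0 a subunits (left) and d subunits (right), 1 bar per library. Tcirg1 takes at least 50.6% of a isoform TPM in every MI library and at most 24.4% in sham, and Atp6v0d2 takes between 8.88% and 27.03% of d isoform TPM in MI.

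The small e subunits moved apart. Atp6v0e, the common form, rose from between 44.8 and 67.2 CPM to between 77.1 and 102.8 CPM (0.66, SE 0.099, adjusted p = 6.76e-05), a call that was lost without sham 1 or sham 2 (0.61 and 0.60). In the sets it changed by 0.97 and 0.54. Atp6v0e2, the form known from brain, fell from 56.9 and 47.7 CPM in sham 1 and 2 and between 24.7 and 26.6 CPM in sham 3 to 6 to between 10.95 and 14.2 CPM in MI. The log2 fold change of Atp6v0e2 was -1.34 (SE 0.165, adjusted p = 1.21e-05), or -2.02 and -0.93 in the sets, and its share of e isoform TPM went from between 13.5% and 34.3% to between 5.04% and 6.56%. The proton-carrying ring genes were not called. Atp6v0c was at 0.047 (SE 0.099), with pseudogenes that can share its reads, and Atp6v0b at -0.15 (SE 0.102), with 0.27 and -0.33 in the sets and 11.8% of its exon bases under an antisense gene. Of the accessory genes Atp6ap2, the prorenin receptor that helps assemble the pump, rose from between 25.1 and 48.0 CPM to between 60.04 and 101.5 CPM with no overlap (1.22, SE 0.106, adjusted p = 6.05e-07), and by 1.49 and 1.13 in the sets. Atp6ap1, its partner in assembly, was at 0.081 (SE 0.077), and lay lower in MI in replicates 1 and 2 and higher in replicates 3 to 6. Atp6ap1l, its relative, had at most 4 counts in any library.

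Counting over 12 libraries in TMM-scaled CPM, 14 of the 33 tested genes had all MI libraries above all sham libraries and 3 had all below. Of all genes tested 21.4% and 21.3% did. The 14 were 8 cathepsins, among them Ctsc with the limit given above, and 6 pump genes, and the 3 were Atp6v0e2, Atp6v1d and Atp6v1e1. In replicates 1 and 2 alone, 6 pump genes rose and 5 fell, beside the 34.1% and 32.9% of all genes. In replicates 3 to 6 alone, 10 rose and 7 fell, beside 42.2% and 39.5%. The close spacing of replicates 3 to 6 lets smaller changes pass there.

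TFEB and its relatives drive many lysosomal genes through the palindrome TCACGTGA, so the windows of the set were searched for it, on both strands. It was in 5 of the 31 windows (16.1%) and in 0.974% of all 32851 windows. The shorter TCACGTG, which the palindrome contains, was in 19.4% and 3.77%, and the core CACGTG in 25.8% and 7.15%. Genes with the core but not the palindrome were Atp6v0b, which holds TCACGTG at 2 places, Ctsf and Ctsl. The genes with the palindrome, shown in capitals, were Atp6v1a, Atp6v0d1, Atp6v0e, Ctsa and Ctsd.
Atp6v1a, chr16:44139373-44139402, minus strand: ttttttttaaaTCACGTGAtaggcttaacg
Atp6v0d1, chr8:105566050-105566079, minus strand: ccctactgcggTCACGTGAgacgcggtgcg
Atp6v0e, chr17:26676387-26676416, plus strand: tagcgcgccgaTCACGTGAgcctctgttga
Ctsa, chr2:164833749-164833778, plus strand: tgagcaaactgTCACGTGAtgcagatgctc
Ctsa, chr2:164833766-164833795, plus strand: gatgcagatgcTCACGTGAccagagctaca
Ctsd, chr7:142387908-142387937, minus strand: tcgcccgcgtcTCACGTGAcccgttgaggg
Of these 5 genes 4 rose and Ctsd was not called, and of all 8 genes with CACGTG 5 rose, Ctsf fell and Ctsd and Atp6v0b were not called. Of the 27 genes with a window 12 rose and 4 fell, beside the 28.1% and 29.8% of all genes, so nothing is read from the counts by motif. The 5 with the palindrome had log2 fold changes of 1.58, 0.48, 0.66, 0.90 and 0.88 in the order given above. Tfeb itself fell by 0.81 on the log2 scale (SE 0.052, adjusted p = 4.43e-08), and by 0.40 with library size alone, still a called fall. Its relatives did not move as one. Tfe3 rose by 0.65 (SE 0.083) and Tfec by 2.32 (SE 0.241), while Mitf fell, at -0.98 (SE 0.088). A match is only a description of the letters.

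Other genes of the same machinery were counted from 6 lists. The share to set each count against is again 28.1% rising and 29.8% falling, or, with library size alone, 6264 rises and 2477 falls over all genes. Of 40 lysosomal hydrolases and cofactors, 28 rose, 2 fell and 10 were not called, with a median of 0.936 on the log2 scale (35 and 1 with library size alone). The 3 with the smallest adjusted p were Acp5, the tartrate-resistant acid phosphatase of osteoclasts and macrophages (4.504, SE 0.222), Scpep1, a serine carboxypeptidase (1.96, SE 0.106), and Naglu, which breaks down heparan sulphate (1.45, SE 0.082). Psap, the precursor of the saposins and the most abundant gene of that list without a call, was at 0.62 (SE 0.123) with adjusted p of 5.844e-04 over 12 libraries and 0.1636 with replicates 3 to 6 counted once. Of 30 lysosomal membrane proteins 14 rose and 6 fell (median 0.199), or 18 and 1 with library size alone. Slc15a3, a peptide and histidine carrier, changed by 2.74 (SE 0.177) and Slc29a3, a nucleoside carrier, by 2.02 (SE 0.15). Laptm4b fell by 0.81 on the log2 scale (SE 0.052), and Lamp1, a main coat protein of the lysosomal membrane, was at 0.12 (SE 0.077).

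**Figure D5:**
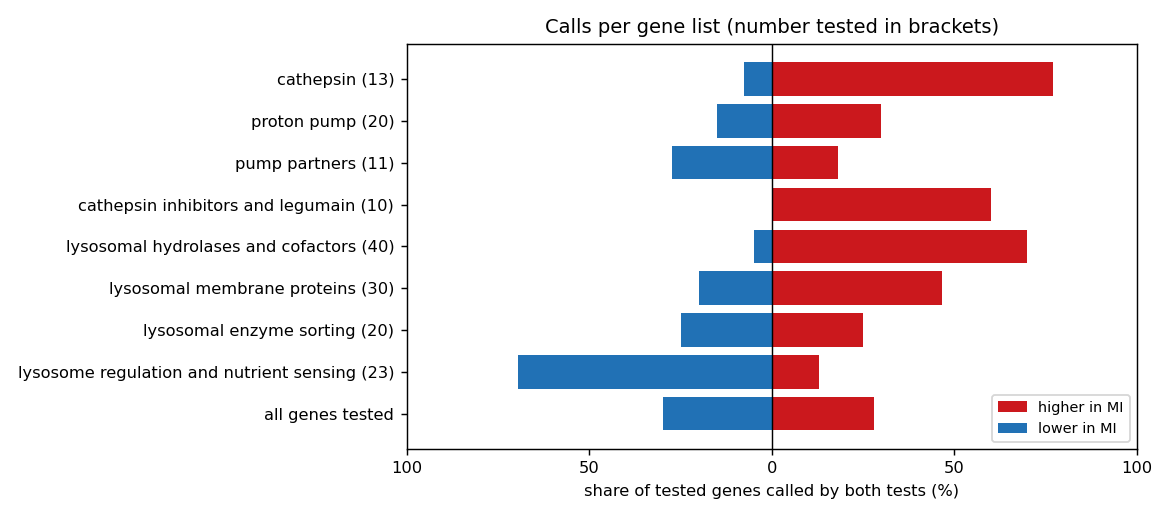
Share of tested genes that rose (red, to the right) or fell (blue, to the left) in both tests, for the cathepsins, the pump and 6 lists of related genes, with all tested genes at the bottom (28.1% and 29.8%). Cathepsins and hydrolases lean to rises and the regulation list to falls, while 6 of 20 pump genes rose and 3 fell; with library size alone all genes lean to rises and the regulation list has 5 rises and 7 falls.

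Genes that restrain or activate cathepsins were also counted. Of 10 tested, 6 rose, none fell and 4 were not called (median 1.004), out of 19 in the table, and with library size alone 8 rose. Lgmn, legumain, which cuts cathepsin precursors to their mature forms, rose by 1.75 (SE 0.108, adjusted p = 3.32e-08). Serpinb1a, an inhibitor of neutrophil proteases including cathepsin G, rose by 3.16 (SE 0.088, adjusted p = 6.03e-11), and Serpina3g by 2.38 (SE 0.268, adjusted p = 5.54e-06). Cst3, cystatin C, a secreted inhibitor of cysteine cathepsins, averaged 1188 CPM and was not called at 0.55 (SE 0.09), with adjusted p of 1.413e-04 and 0.1344. Among 11 tested partners of the pump outside the symbol rule, 2 rose, 3 fell and 6 were not called (median -0.328), but none fell with library size alone, where the median was 0.082. Tcirg1 and Ncoa7 rose, the latter by 1.23 (SE 0.169), while Rogdi, of a complex that reassembles the pump, fell by 1.06 on the log2 scale (SE 0.12). Oxr1, related to Ncoa7, was at -0.51 (SE 0.076) and not called.

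The lists for sorting and for regulation were counted in the same way. Of 20 genes that carry enzymes to the lysosome, 5 rose, 5 fell and 10 were not called (median 0.185), which is close to the 28.1% and 29.8% of all genes. With library size alone 10 rose and 0 fell, where all genes lean to rises too. Nagpa, which uncovers the mannose 6-phosphate tag, rose by 0.45 (SE 0.067), and the coat adaptors Gga1 and Vps26a fell by 0.61 (SE 0.065) and 0.80 (SE 0.074) on the log2 scale. Igf2r, the large mannose 6-phosphate receptor, was at 0.28 (SE 0.094) and not called. Of 23 regulators and nutrient-sensing genes 3 rose and 16 fell (median -0.638), and with library size alone 5 rose and 7 fell (median -0.228). Tfeb and its relatives are given above. The other named ones were Lamtor4, a part of the Ragulator scaffold, at -0.68 (SE 0.053), and Ppargc1a, a coactivator abundant in heart muscle, at -2.20 (SE 0.169). Rragc, one of the Rag GTPases, was at 0.22 (SE 0.063) and not called. The cardiomyocyte markers fell in the same libraries, and their part in these changes was not tested.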

How the data were processed

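The labels state total RNA extraction, oligo(dT) enrichment and fragmentation. Per the submitters' processing notes, replicates 3 to 6 were handled with Bowtie2, RSEM and DESeq2 and all libraries with GRCm38, with no versions named. The authors deposited expected counts (estimated, unscaled), TPM and FPKM per gene, and a separate table of FPKM for replicates 1 and 2. After rounding, the counts of all genes entered edgeR 4.0.16 in R 4.3.3 (TMM scaling, filterByExpr, quasi-likelihood test, Benjamini-Hochberg adjustment). A standard error is the log2 fold change divided by the root of F. TPM served for shares between genes and for the implied gene lengths. FPKM served for an alternative test (limma 3.58.1 with pseudocounts of 1 and 0.1) and for values from the separate table. DESeq2 1.42.0 on the counts was a further alternative. Of the 38 genes, 33 passed the filter on low counts in both tests. Members, lists and tests were chosen with earlier results of these data known. Every member with at least 10 counts per library on average is given values. From each list the text names the 3 called genes with the smallest adjusted p and the most abundant gene not called or against the majority of its list. The relatives of Tfeb are also named. For each marker list the text gives the 2 highest genes, and for some lists further genes. Positions and promoter windows are RefSeq's and exon overlaps GENCODE's, on GRCm38. Scripts were tested on simulated data. Exact intervals are at 95% and cover counting error only.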

Additional observations from a re-analysis of the deposited data

Results flagged for a closer look

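In 11 of 66 groups of 6 libraries (33 genes, sham or MI), 1 library lay so far from the others that its gap to the nearest of them exceeded the limit of Dixon's test. Chance gives such a flag in about 1 of 20 groups, and since replicates 3 to 6 lie close together any library of replicates 1 and 2 can stand out. MI 2 was the far library for Ctsb at 4335 CPM, Ctsh at 246.7 CPM, Ctsk at 138.5 CPM, Ctse at 13.98 CPM, Atp6v0d2 at 60.66 CPM and Atp6v1b2 at 153.7 CPM, above the rest each time. MI 1 was the far library for Ctsl at 678.8 CPM, Ctsc at 177.3 CPM, Atp6ap2 at 60.04 CPM and Atp6v1c1 at 53.15 CPM, below the rest each time. For Ctsc that flag sets MI 1 against libraries of the other set, whose gene models may differ, which was not tested. Sham 2 was the highest sham library for Atp6v0d1 at 68.97 CPM. Summed macrophage markers were 6454 CPM in MI 2 and 4358 CPM in MI 1, and their part in these values was not tested.

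The log2 fold change of Ctsh in replicates 3 to 6 minus that in replicates 1 and 2 was -1.731, a difference between sets that passed the interaction test in both forms.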

How the results depend on the processing

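Calls were recomputed with other scalings, tests, filters, thresholds and covariates and without each library. With library size alone, log2(FPKM + 1) and log2(FPKM + 0.1), the median of all genes moved up by 0.41, 0.29 and 0.39, and 11 cathepsins rose and 0 fell. Uncalled genes turned positive under those 3 settings, in that order: Atp6v0a1 (0.23, 0.21 and 0.23), Atp6v0a2 (0.25, 0.23 and 0.25), Atp6v0b (0.26, 0.22 and 0.22), Atp6v1b2 (0.40, 0.37 and 0.38), Atp6v1c1 (0.11, 0.10 and 0.10) and Atp6v1f (0.082, 0.076 and 0.076). Atp6v1b2 was also positive with no filter (0.017) and with at least 10 counts in every library (0.057). Without the set covariate Ctsa, Ctsf, Ctso, Atp6v0d1, Atp6v0e and Atp6v1d were not called. Cathepsins that fell numbered 0 there and 0 with a 2-fold minimum, where 1 pump gene fell. In replicates 1 and 2 library size alone gave 0 falling cathepsins and 10 rising and 3 falling pump genes. For the difference between sets, as for the 6 related gene lists, scalings were added after seeing the data. Library size alone called 0 cathepsins different between sets, and DESeq2 size factors called 1 pump gene. Without single libraries both tests called 8 to 10 rising and 1 falling cathepsin, and 4 to 7 rising and 3 falling pump genes. Log2 fold changes then ranged from -0.033 to 0.11 for Atp6v0c, -0.059 to 0.087 for Atp6v1b2, -0.061 to 0.22 for Atp6v1g2 and -0.775 to 0.98 for Ctse. The cause was not tested.

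Replicate numbers were not taken as pairs. The deviations of log2 CPM from the mean of each set and group correlated at between -0.0432 and 0.0714 for same-numbered libraries. For replicates 1 and 2, with 2 libraries a group, both values are the same by construction (0.0714). Such low values cannot show whether the numbers stand for pairs. With the replicate block 10 cathepsins rose and 1 fell, and 7 pump genes rose and 3 fell, Atp6v1h being added at 0.49. Ctse was at -0.006. Limits of depth touch Ctsg, Ctse, Atp6v1c2, Atp6v1e2 and Atp6ap1l, and the levels of Ctsw, Atp6v0a4 and Atp6v0d2 in sham.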

Other observations

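Ctsc behaved unlike the rest in the deposited TPM. The gene length implied by counts and TPM, relative to the median gene, was between 0.971 and 1.04 in replicates 1 and 2 and between 2.18 and 2.29 in replicates 3 to 6, a ratio of 0.452. Of 9768 genes compared 96% lay within 1.2-fold between the sets. Gene models that differ between the sets would change both TPM and counts of Ctsc, which was not tested. Its change is therefore to be read within each set. Its ranges and lack of overlap over 12 libraries, and the flag on MI 1, set the sets side by side and carry this limit.

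Atp6v1b1, the kidney B isoform, is listed only in the separate FPKM table of replicates 1 and 2, at 0 in both sham libraries, 0 in MI 1 and 0.03 in MI 2. For the 36 genes of the set in both tables, FPKM differed by up to 117.2.

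The marker lists not set beside a gene above gave these values. Their counts stand beside the 28.1% of all genes tested that rose and the 29.8% that fell. Nothing is read from counts near or below those shares. Of 8 fibroblast markers 7 rose, from between 3023 and 3656 CPM summed in sham to between 27750 and 73910 CPM in MI, led by Col1a1 and Col3a1. Of 7 endothelial markers, led by Pecam1 and Cdh5, 2 fell, and their sums were between 949.6 and 1149 CPM in sham and between 714.1 and 1074 CPM in MI. Smooth muscle and pericyte markers, led by Acta2 and Rgs5, summed to between 1245 and 1424 CPM in sham and between 1362 and 1524 CPM in MI, with 3 of 7 rising and 2 falling. Mast cell markers, led by Kit and Hdc, were at most 18.8 CPM in sham and 23.3 CPM in MI, and 1 of 5 tested rose. Dendritic and B cell markers, led by Zbtb46 and Xcr1, lay between 19.04 and 34.7 CPM in sham and between 22.1 and 33.6 CPM in MI, and 1 of 7 tested rose. Erythroid markers, led by Hba-a1 and Hbb-bs, had no call among 6 and ranged from 2988 to 5528 CPM in sham and from 1003 to 9346 CPM in MI. The 2 most abundant of the other lists were Myh6 and Actc1 for cardiomyocytes, Csf3r and S100a9 for neutrophils, Gzma and Cd4 for T and NK cells, Acp5 and Nfatc1 for osteoclasts and Sftpc and Sftpa1 for lung.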
